A study of Mus musculus with 6 samples.

Results

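The ADAM, ADAMTS and ADAMTS-like genes were described by RNA-seq in cultured hepatic stellate cells of mice, in 6 libraries. These cells are the vitamin A-storing pericytes of the liver. Members were all genes whose mouse symbol is Adam, Adamts or Adamtsl followed by a number and, in some, the letter a or b. The reference table of GRCm38 names 57 such genes, of which 41 were listed in at least 1 library: 20 ADAM genes, 16 ADAMTS genes and 5 ADAMTS-like genes, of 17909 gene identifiers in all. The remaining 16, which include Adam2, Adam7, Adamts16 and Adamts18, were listed in no library.

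The HAS2_Tg group (replicates 4, 5 and 6) came from mice that carry human HAS2 under the alpha smooth muscle actin (ASMA) promoter, which is active in smooth muscle and activated stellate cells. In the Has2_KO group (replicates 7, 8 and 9) floxed Has2 had been deleted with Lrat-Cre, which acts in stellate cells, so other liver cells kept the gene. Both groups were male C57BL/6 mice of 24 weeks. Their cells were purified on a Nycodenz gradient, depleted of Cd11b-positive macrophages and collected at day 1 of culture in serum. HAS2 makes hyaluronan, a matrix polysaccharide. A wild-type group was not analysed here, so each difference is between an overexpressing and a deficient genotype. The labels do not say whether the libraries of a group came from separate animals, so p-values measure the spread between these libraries, which may be technical.

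ADAM proteins are membrane-anchored metalloproteases that cut the extracellular part off other membrane proteins, a process called shedding, and several members lack a working active site and serve in adhesion. ADAMTS proteins are secreted and carry thrombospondin repeats. They trim procollagen, cut proteoglycans such as versican and aggrecan, which bind hyaluronan, or process clotting and microfibril proteins. ADAMTS-like proteins share the repeats but have no protease domain and bind fibrillin-rich microfibrils. In the liver, stellate cells are known as a source of ADAMTS13, the von Willebrand factor protease, and Adam12 is known from activated stellate cells.

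Whether a member can act as a protease is written in a short run of codons that binds the catalytic zinc, and these runs are shown because they separate the enzymes from the rest of the members. The longest complete coding sequence of each listed gene in GENCODE M21 (GRCm38) was searched in frame for a histidine codon followed by a glutamate codon, with further histidine codons at positions 5 and 11 of an 11-codon run. This pattern is found in 95 of 21546 mouse protein-coding genes (0.441%). Among the 41 listed members, 29 held it and 12 did not. The 12 without it were the 5 ADAMTS-like genes and Adam3, Adam4, Adam5, Adam11, Adam22, Adam23 and Adam32. The runs below are coding-strand DNA, 5′ to 3′, with the histidine and glutamate codons in capitals.
Adam8: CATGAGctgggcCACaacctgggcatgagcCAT
Adam17: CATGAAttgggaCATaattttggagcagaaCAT
Adam10: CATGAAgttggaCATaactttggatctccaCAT
Adamts1: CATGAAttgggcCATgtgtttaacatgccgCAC
Adamts4: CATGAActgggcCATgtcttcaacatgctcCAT
Adamts5: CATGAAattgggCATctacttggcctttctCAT
Adamts7: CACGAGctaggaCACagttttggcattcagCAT
Adamts12: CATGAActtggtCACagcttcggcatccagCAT
Adamts2: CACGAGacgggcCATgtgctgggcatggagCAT
Adamts14: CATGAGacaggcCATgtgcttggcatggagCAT
Of 33 bases, Adamts2 and Adamts14 shared 30, Adamts1 and Adamts4 27, Adamts7 and Adamts12 26, Adam10 and Adam17 26, Adamts1 and Adamts5 20, and Adam8 and Adam17 19. Part of each count was fixed by the search, which required the histidine and glutamate codons, and most other pairs were not compared. Several of these pairs differed in expression between the genotypes, as given below.

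Each library held 11961726 to 12423220 expected counts in total. Mouse Has2 had 835 to 889 counts in the HAS2_Tg libraries and 1 count in each Has2_KO library. The deletion is thus seen in the counts, while the human transgene is not checked by the mouse gene. HAS2_Tg replicate 4 stood apart from replicates 5 and 6. The chi-square per degree of freedom over gene identifiers was 22.8 and 31.5 against them, 6.24 between them, and at most 3.17 within Has2_KO. These values include an unnamed identifier that held 1.59% of the counts of replicate 4, 0.156% in replicate 5 and 0.0467% in replicate 6. It adds to the values of replicate 4, and they were not computed without it. Of 15 stellate markers, 12 were higher in HAS2_Tg and none lower. The 15 summed to 11430 to 12340 CPM in HAS2_Tg and 7748 to 8143 CPM in Has2_KO (CPM, counts relative to the TMM-scaled library total). The largest log2 changes were in Colec11 (180 CPM in HAS2_Tg, 25.3 CPM in Has2_KO), Colec10 (177 and 25.5 CPM) and Lrat (102 and 25.8 CPM). Reln, Hgf and Ngfr were not called. Stellate markers were thus present in both groups, at a lower sum in Has2_KO. All 17 tested macrophage markers and 18 of 19 endothelial markers were lower in HAS2_Tg. So were 6 of 7 hepatocyte markers, 4 of 4 tested cholangiocyte markers and the 1 tested mesothelial marker. Many markers of these lists, such as Krt18 (0 in HAS2_Tg, 31, 34 and 55 counts in Has2_KO), passed the filter through Has2_KO alone. For those only a fall could be called. Of 8 listed cholangiocyte markers, Epcam, Krt7, Krt19 and Cldn4 were not tested, with at most 4 counts in any library. Of 6 listed mesothelial markers only Wt1 was tested, and the rest had at most 6 counts. For each marker list here, the share over all genes tested was 20.2% higher and 20.5% lower. Macrophage markers summed to 15.5 to 18.1 CPM in HAS2_Tg and 647 to 697 CPM in Has2_KO, and endothelial markers to 46.6 to 51.5 CPM in HAS2_Tg and 1124 to 1202 CPM in Has2_KO. The macrophage markers Clec4f and Timd4 and the endothelial markers Gpihbp1 and Emcn were at 0 in all HAS2_Tg libraries. Of 9 tested portal fibroblast and smooth muscle markers, 4 were higher and 4 lower. This list summed to 1719 to 2027 CPM in HAS2_Tg and 440 to 467 CPM in Has2_KO. Most of that sum came from the smooth muscle gene Myh11, at 1269 ± 126 CPM in HAS2_Tg against 108 ± 6.56 CPM in Has2_KO (log2 fold change 3.55), and Lmod1 also rose (2.41). Their part in the rises described below was not tested. Nor was the part of macrophages and endothelial cells, whose markers were lower in HAS2_Tg, in the falls described below. Of 2 tested neutrophil markers 1 was lower. In bulk RNA, fewer cells of a type and less RNA per cell cannot be told apart.

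Of the 41 listed members, 28 passed the low-count filter, and they could do so through either group. After testing all 13014 genes with edgeR, 12 of the 28 were higher in HAS2_Tg and 7 lower at an adjusted p under 0.05. Over all genes tested, 40.7% were called, 20.2% higher and 20.5% lower. With total counts in place of TMM, 9 members were higher and 10 lower, so the balance of directions depends on the scaling. Changes of at least 2-fold were called for 11 members, 7 higher and 4 lower, where all genes gave 11.2%, 3.31% higher and 7.91% lower. These counts depend on the scaling as well. With total counts Adamts1 (log2 fold change 0.84) and Adamts2 (0.91) rose by less than 2-fold, and Adam22 (-1.01) fell by more. The TMM-scaled CPM of the groups did not overlap in 19 of the 28 tested members, 12 with HAS2_Tg higher and 7 lower, and in 52.2% of all genes tested. The median size of the log2 fold change was 0.69 among the 28 and 0.25 over all genes. By family, 3 ADAM genes were higher and 4 lower of 12 tested, 6 ADAMTS genes higher and 2 lower of 12, and 3 ADAMTS-like genes higher and 1 lower of 4. With total counts the ADAM genes gave 1 higher and 5 lower, the ADAMTS genes 5 and 4, and the ADAMTS-like genes 3 and 1. Among the 21 tested members with the zinc-binding run, 8 were higher, 5 lower and 8 not called. Among the 7 without it, 4 were higher, 2 lower and 1 not called.

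Deposited FPKM, which divides by gene length, allows levels to be compared between genes within a library. ADAMTS genes summed to 308 to 323 FPKM in the HAS2_Tg libraries and 202 to 205 FPKM in the Has2_KO libraries. ADAMTS-like genes summed to 78.6 to 93.2 FPKM in HAS2_Tg and 45.6 to 52.2 FPKM in Has2_KO, and ADAM genes to 189 to 208 FPKM in HAS2_Tg and 205 to 215 FPKM in Has2_KO. The first pair of families thus stood higher in every HAS2_Tg library than in any Has2_KO library, while the ADAM sums overlapped. A few genes made up most of each sum. Adamts1 took 38.9 to 41.6% of the ADAMTS sum in HAS2_Tg and 34.6 to 34.8% in Has2_KO, and Adam9 took 41.0 to 44.3% of the ADAM sum in HAS2_Tg and 38.7 to 40.3% in Has2_KO.

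The ADAM genes with a catalytic motif moved in both directions, with Adam8, Adam12 and Adam17 lower and Adam15 higher in HAS2_Tg. Adam8, a sheddase best known from leukocytes (chromosome 7, 139978932 to 139995207, GRCm38), had 24, 22 and 21 expected counts in HAS2_Tg and 198, 194 and 184 in Has2_KO. All HAS2_Tg libraries lay far below all Has2_KO libraries. This gave a log2 fold change of -2.89 (SE 0.15, edgeR adjusted p = 1.01e-09), a 7.39-fold lower level, and the largest fall among the members tested. Adam8 moved with the macrophage markers given above, and their part in its difference was not tested.

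Adam17, the enzyme that releases TNF and several epidermal growth factor (EGF) receptor ligands (chromosome 12, 21323509 to 21373632), had 638, 707 and 666 counts in HAS2_Tg and 1213, 1224 and 1193 in Has2_KO. The groups were well apart and the libraries within each were close. Mean levels were 59.0 ± 2.34 CPM for HAS2_Tg against 91.9 ± 0.91 CPM for Has2_KO (SD over 3 libraries), and the log2 fold change was -0.64 (SE 0.07, adjusted p = 5.31e-06). Adam17 and Iah1 share 311 exonic bases on opposite strands, and whether strand was used in counting is not stated. Iah1 averaged 229 counts in HAS2_Tg and 194 in Has2_KO, fewer than Adam17.

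Adam10, the other main sheddase and a Notch-cleaving enzyme, had 1318, 1618 and 1618 counts in HAS2_Tg and 1852, 1959 and 1975 in Has2_KO. After TMM scaling its groups overlapped, and its log2 fold change of -0.13 (SE 0.08, adjusted p = 0.214) did not pass. With total counts it was -0.31 (adjusted p = 0.00866), and the limma fits on FPKM also called it lower (-0.30 to -0.31), so this call depends on scaling. The ratio of Adam10 to Adam17 FPKM, which no library scaling touches, was 2.00, 2.21 and 2.34 in HAS2_Tg and 1.47, 1.54 and 1.60 in Has2_KO. Every HAS2_Tg library was above every Has2_KO library in this ratio.

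Adam12, a protease of mesenchymal cells that can shed EGF receptor ligands, had 363, 504 and 521 counts in HAS2_Tg and 834, 884 and 884 in Has2_KO. HAS2_Tg replicate 4 was the lowest, and all 3 HAS2_Tg libraries were below all Has2_KO libraries. Adam12 had a log2 fold change of -0.70 (SE 0.11, adjusted p = 0.000112), which lay between -0.78 and -0.56 when each library was left out. The stellate marker sum was higher in HAS2_Tg, and the part of cell content in the Adam12 difference was not tested.

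Adam15, a protease that also binds integrins, had 1527, 1293 and 1157 counts in HAS2_Tg and 958, 953 and 946 in Has2_KO. Replicate 4 was the highest HAS2_Tg library, and no library of that group reached down to the Has2_KO values. Its log2 fold change was 0.69 (SE 0.10, adjusted p = 4.74e-05). Genes annotated on the opposite strand overlap exons of Adam15, Adam19, Adam8, Adam3, Adamts8 and Adamts9, by 736 bases in Adam15, 489 in Adamts8 and 46 in Adam8. None of these overlapping genes was listed in any library, and without strand reads from them cannot be told apart.

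Adam9, a widely expressed sheddase, had the highest FPKM of the ADAM family in every library, 77.3, 90.1 and 90.3 FPKM in HAS2_Tg and 79.8, 86.7 and 80.7 FPKM in Has2_KO. These FPKM values overlapped, as did its counts, which were 3783, 4379 and 4486 in HAS2_Tg and 4034, 4401 and 4081 in Has2_KO. TMM-scaled values were 339, 382 and 392 CPM in HAS2_Tg and 306, 333 and 311 CPM in Has2_KO, just apart. The log2 fold change of 0.23 (SE 0.08) passed with an adjusted p of 0.0317. The call ended without HAS2_Tg replicate 5 (adjusted p = 0.0837) or 6 (0.0692), without Has2_KO replicate 7 (0.143), 8 (0.051) or 9 (0.125), and with total counts, where the value was 0.05.

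Adam19, a sheddase of neuregulins, had 1645, 1901 and 2069 counts in HAS2_Tg and 1861, 2020 and 1932 in Has2_KO and did not pass (log2 fold change 0.16, SE 0.08, adjusted p = 0.141). Adam28, known from lymphocytes, had 89.7, 135 and 121 counts in HAS2_Tg and 107, 96.8 and 106 in Has2_KO (0.37, SE 0.15, adjusted p = 0.0632). In both genes HAS2_Tg replicate 4 was the lowest of the HAS2_Tg libraries, and after TMM scaling it lay within the Has2_KO range. Without it, Adam19 (0.23, adjusted p = 0.00857) and Adam28 (0.50, adjusted p = 0.00504) were called higher. Adam1a, known from sperm, was low, with 38 to 40.9 counts in HAS2_Tg and 41 to 52 in Has2_KO (-0.02, SE 0.19, adjusted p = 0.933). Its reads can be shared with Adam1b, whose zinc-binding run has the same bases, and its exons overlap those of Mapkapk5.

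The 3 tested ADAM genes without the zinc-binding run encode adhesion proteins known from the nervous system. Adam11 had 38.2, 26 and 41.7 counts in HAS2_Tg and 23, 24 and 29.0 in Has2_KO, which overlapped. After TMM scaling it had 3.40, 2.27 and 3.67 CPM in HAS2_Tg and 1.75, 1.82 and 2.21 CPM in Has2_KO, with a narrow gap (log2 fold change 0.69, SE 0.24, adjusted p = 0.0348). Adam22 had 9, 16 and 12 counts in HAS2_Tg and 22, 24 and 31 in Has2_KO (-0.84, SE 0.29, adjusted p = 0.034). Both calls are fragile: each held in 2 of the 6 fits that left out a library. Without HAS2_Tg replicate 4 the adjusted p was 0.081 for Adam11 and 0.11 for Adam22, and without HAS2_Tg replicate 6 it was 0.122 and 0.0739. Has2_KO libraries mattered as well, since the Adam11 call also ended without replicate 7 (0.113) or 8 (0.103) and that of Adam22 without replicate 8 (0.0629) or 9 (0.147). Adam23 had 123, 131 and 157 counts in HAS2_Tg and 149, 126 and 149 in Has2_KO, with overlapping groups (0.17, SE 0.13, adjusted p = 0.326).

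**Figure D1:**
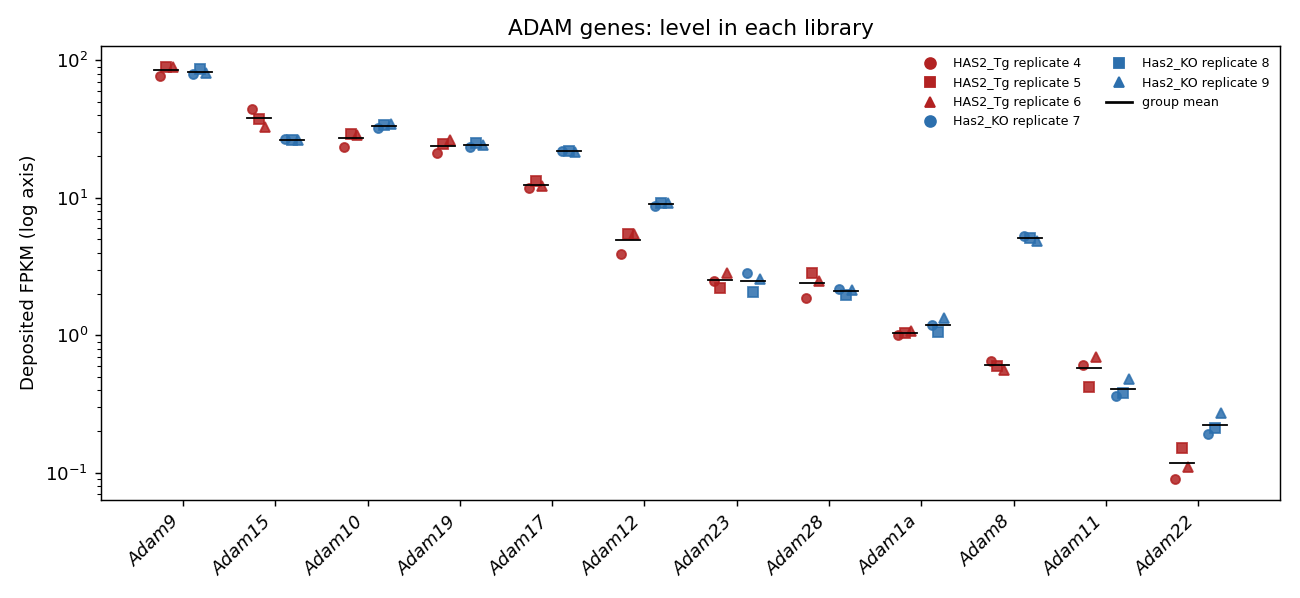
Deposited FPKM (log axis) of the 12 tested ADAM genes in each library, HAS2_Tg in red left of Has2_KO in blue, with black lines at group means. Adam8 lies between 0.56 and 0.65 FPKM in HAS2_Tg and between 4.88 and 5.26 FPKM in Has2_KO. Adam17, Adam12, Adam10 and Adam22 are also lower in FPKM, Adam15 is higher, and the others overlap.

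Among ADAMTS genes that trim procollagen, Adamts2 alone changed. It removes the N-terminal propeptide of fibrillar collagens (chromosome 11, 50602085 to 50807573) and had 5947, 5629 and 5529 counts in HAS2_Tg and 3037, 3122 and 3180 in Has2_KO. No HAS2_Tg library came near the Has2_KO values. Adamts2 had a log2 fold change of 1.09 (SE 0.07, adjusted p = 1.59e-08), or 2.12-fold, which stayed between 1.04 and 1.12 when each library was left out. With total counts the value was 0.91. Adamts14, which has the same substrate and nearly the same zinc-binding codons, had 333, 403 and 418 counts in HAS2_Tg and 410, 449 and 412 in Has2_KO (0.07, SE 0.10, adjusted p = 0.584). The ratio of Adamts2 to Adamts14 FPKM was 12.96, 10.3 and 9.69 in HAS2_Tg and 5.56, 5.28 and 5.80 in Has2_KO. Adamts3, which also activates VEGF-C and cleaves reelin, was low, with 28 to 48 counts in HAS2_Tg and 53 to 62 in Has2_KO (-0.36, SE 0.21, adjusted p = 0.193). With total counts Adamts3 was called lower (-0.53, adjusted p = 0.0452).

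Proteoglycan-cutting ADAMTS genes parted, with Adamts5, Adamts1 and Adamts15 higher and Adamts4 lower in HAS2_Tg. Adamts5, an aggrecan- and versican-cleaving enzyme on chromosome 16 (85858157 to 85901125, GRCm38), had 3409, 3301 and 3621 counts in HAS2_Tg and 951, 919 and 887 in Has2_KO. Mean levels were 303 ± 14.4 CPM for HAS2_Tg against 69.8 ± 2.31 CPM for Has2_KO (SD over 3 libraries). The log2 fold change of 2.12 (SE 0.08, adjusted p = 1.53e-11), or 4.34-fold, was the largest rise among the members tested. Adamts1, which cuts versican and has anti-angiogenic repeats, was the most abundant ADAMTS gene, with 7306, 7208 and 8129 counts in HAS2_Tg and 4284, 4391 and 4268 in Has2_KO. Its log2 fold change was 1.02 (SE 0.07, adjusted p = 3.79e-08), with all HAS2_Tg libraries above all Has2_KO libraries.

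Adamts4, the other main aggrecanase, had 19, 31 and 34 counts in HAS2_Tg and 75, 95 and 95 in Has2_KO. It is scarce in both groups, and the groups did not overlap. Its log2 fold change was -1.44 (SE 0.21, adjusted p = 5.55e-05), opposite to that of Adamts5. The ratio of Adamts5 to Adamts4 FPKM was 80.3, 48.1 and 48.2 in HAS2_Tg and 5.72, 4.36 and 4.20 in Has2_KO, so Adamts5 was the more abundant gene in both genotypes by unequal margins. Adamts15 had 33, 34 and 30 counts in HAS2_Tg and 10, 12 and 11 in Has2_KO, all low but apart (1.76, SE 0.26, adjusted p = 5.88e-05). Adamts9, a versican protease with a GON domain, was abundant, with 1816, 1671 and 2050 counts in HAS2_Tg and 2246, 2441 and 2301 in Has2_KO. It did not pass (-0.12, SE 0.08, adjusted p = 0.259), but with total counts it was called lower (-0.30, adjusted p = 0.00731). The limma fits on FPKM also called Adamts9 lower (-0.29 to -0.30).

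Adamts1 and Adamts5 are neighbours on chromosome 16, 55.0 kb apart with no protein-coding gene between them, and both rose. Adamts15 and Adamts8, 20.1 kb apart on chromosome 9 and also adjacent, went opposite ways in their counts. Adamts8, a further proteoglycanase, had 0, 1 and 1 counts in HAS2_Tg and 7, 8 and 8 in Has2_KO and did not pass the low-count filter. Scaled by TMM-adjusted library totals, the Has2_KO sum was 9.93 times the HAS2_Tg sum (95% exact interval 2.45 to 86.9, counting error only), and a fit with no filter called Adamts8 lower (adjusted p = 0.00314). An unlisted antisense gene overlaps 489 exonic bases of Adamts8, and its reads cannot be told apart without strand. Adamts13 and Adamtsl2 lie 69.7 kb apart on chromosome 2 with 3 protein-coding genes between them.

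Of the 2 proteases that cleave cartilage oligomeric matrix protein (COMP), Adamts7 fell and Adamts12 did not pass. Adamts7, which also acts in vascular smooth muscle remodelling (chromosome 9, 90162904 to 90200102), had 144, 108 and 149 counts in HAS2_Tg and 812, 827 and 774 in Has2_KO. The groups were far apart, and the log2 fold change was -2.38 (SE 0.11, adjusted p = 2.82e-10), a 5.19-fold lower level. Adamts7 and Tbc1d2b share 122 exonic bases on opposite strands, and Tbc1d2b averaged 1115 counts in HAS2_Tg and 1890 in Has2_KO, so a share of its reads in Adamts7 cannot be told apart without strand. Adamts12 had 528, 831 and 903 counts in HAS2_Tg and 880, 842 and 878 in Has2_KO. Replicate 4 alone was low. The log2 fold change was 0.01 (SE 0.16, adjusted p = 0.973) with it, and 0.20 (adjusted p = 0.0299) without it. In FPKM the ratio of Adamts7 to Adamts12 was 0.31, 0.15 and 0.19 in HAS2_Tg and 1.06, 1.13 and 1.01 in Has2_KO.

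Adamts10, which associates with fibrillin microfibrils and is mutated in human Weill-Marchesani syndrome, had 2023, 1684 and 1606 counts in HAS2_Tg and 881, 792 and 848 in Has2_KO. Replicate 4 was the highest and every HAS2_Tg library exceeded every Has2_KO library. The log2 fold change was 1.29 (SE 0.10, adjusted p = 5.65e-08), and 1.16 to 1.36 with each library left out. In HAS2_Tg, Adamts10 (32.1 to 41.1 FPKM) and Adamts5 (33.7 to 36.1 FPKM) overlapped in level, whereas in Has2_KO Adamts10 averaged 16.6 ± 0.92 FPKM and Adamts5 9.05 ± 0.32 FPKM (SD, n = 3 each). Adamts13 had 474, 471 and 439 counts in HAS2_Tg and 453, 440 and 393 in Has2_KO, which overlapped. After TMM scaling it had 42.5, 41.0 and 38.3 CPM in HAS2_Tg and 34.4, 33.3 and 30.0 CPM in Has2_KO. These values were apart by a small margin (0.32, SE 0.09, adjusted p = 0.00985). The Adamts13 call ended without Has2_KO replicate 9 (adjusted p = 0.0718) and with total counts (0.14, adjusted p = 0.204).

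All 4 tested ADAMTS-like genes changed, 3 upward. Adamtsl2, whose protein binds fibrillin-1 and latent TGF-beta binding protein 1 and whose human gene is mutated in geleophysic dysplasia, had 1112, 960 and 873 counts in HAS2_Tg and 371, 341 and 394 in Has2_KO. Its lowest HAS2_Tg library was above the highest Has2_KO library. Adamtsl2 thus had a log2 fold change of 1.63 (SE 0.10, adjusted p = 9.28e-09), or 3.09-fold. Adamtsl4, which binds fibrillin-1 in the eye's zonule and elsewhere, had 874, 849 and 779 counts in HAS2_Tg and 358, 368 and 380 in Has2_KO (1.39, SE 0.08, adjusted p = 4.89e-09). Adamtsl5, another microfibril-binding protein and the highest of the family by FPKM, had 971, 962 and 826 counts in HAS2_Tg and 654, 647 and 730 in Has2_KO (0.65, SE 0.09, adjusted p = 3.28e-05). In the other direction, Adamtsl3, known as punctin-2, had 13, 21 and 30 counts in HAS2_Tg and 57, 94 and 69 in Has2_KO. It was scarce and variable in both groups, which did not overlap (-1.57, SE 0.27, adjusted p = 0.000293).

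**Figure D2:**
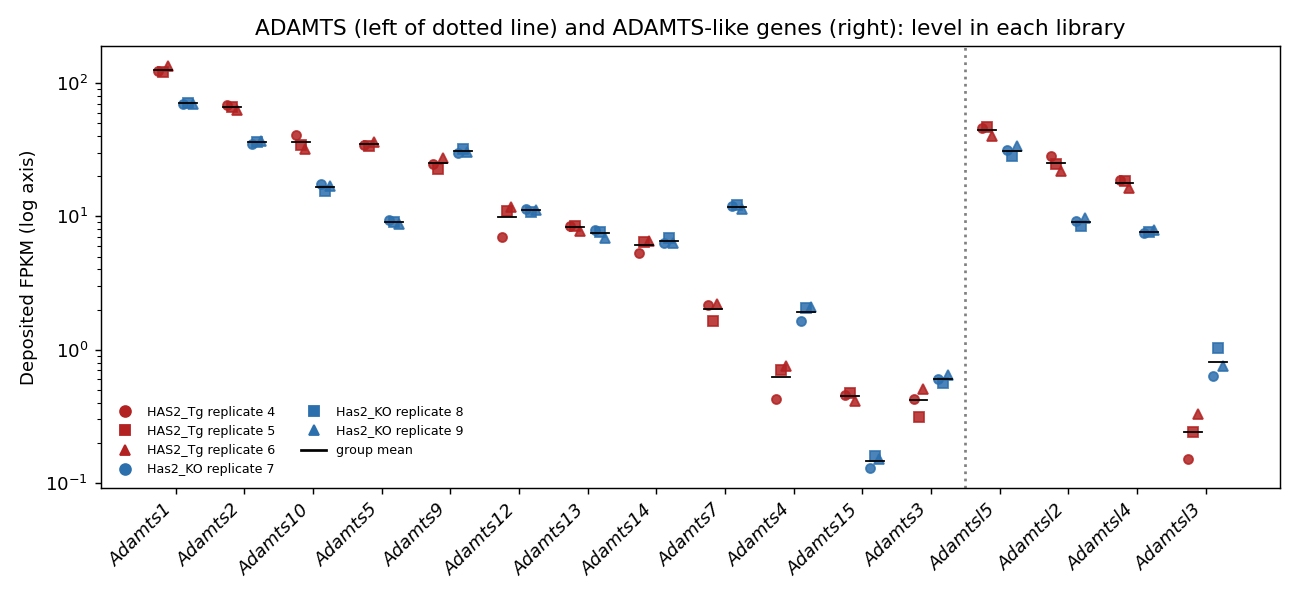
Deposited FPKM (log axis) of the 12 tested ADAMTS genes, left of the dotted line, and the 4 tested ADAMTS-like genes, right of it, in each library, HAS2_Tg in red left of Has2_KO in blue, with black lines at group means. The abundant Adamts1, Adamts2, Adamts10 and Adamts5 are higher in HAS2_Tg, and Adamts7, Adamts4 and, by a smaller margin, Adamts9 are lower in FPKM. The red circle of replicate 4 is the lowest Adamts12 value, at 6.96 FPKM.

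The 13 listed members that did not pass the low-count filter were Adam1b, Adam3, Adam4, Adam5, Adam21, Adam30, Adam32, Adam33, Adamts6, Adamts8, Adamts17, Adamts20 and Adamtsl1. Their highest count in any library was 10, for Adamtsl1, followed by 9.66 for Adam4, 9 for Adam32 and 8 for Adamts6 and Adamts8. Adam33 was listed only in Has2_KO, with 1 count in each of 2 libraries, while Adamts20 had a single count and Adam1b 2.11, each in 1 HAS2_Tg library. A fit with no filter called none of these but Adamts8, with adjusted p from 0.202 to 0.947 for the other 12.

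**Figure D3:**
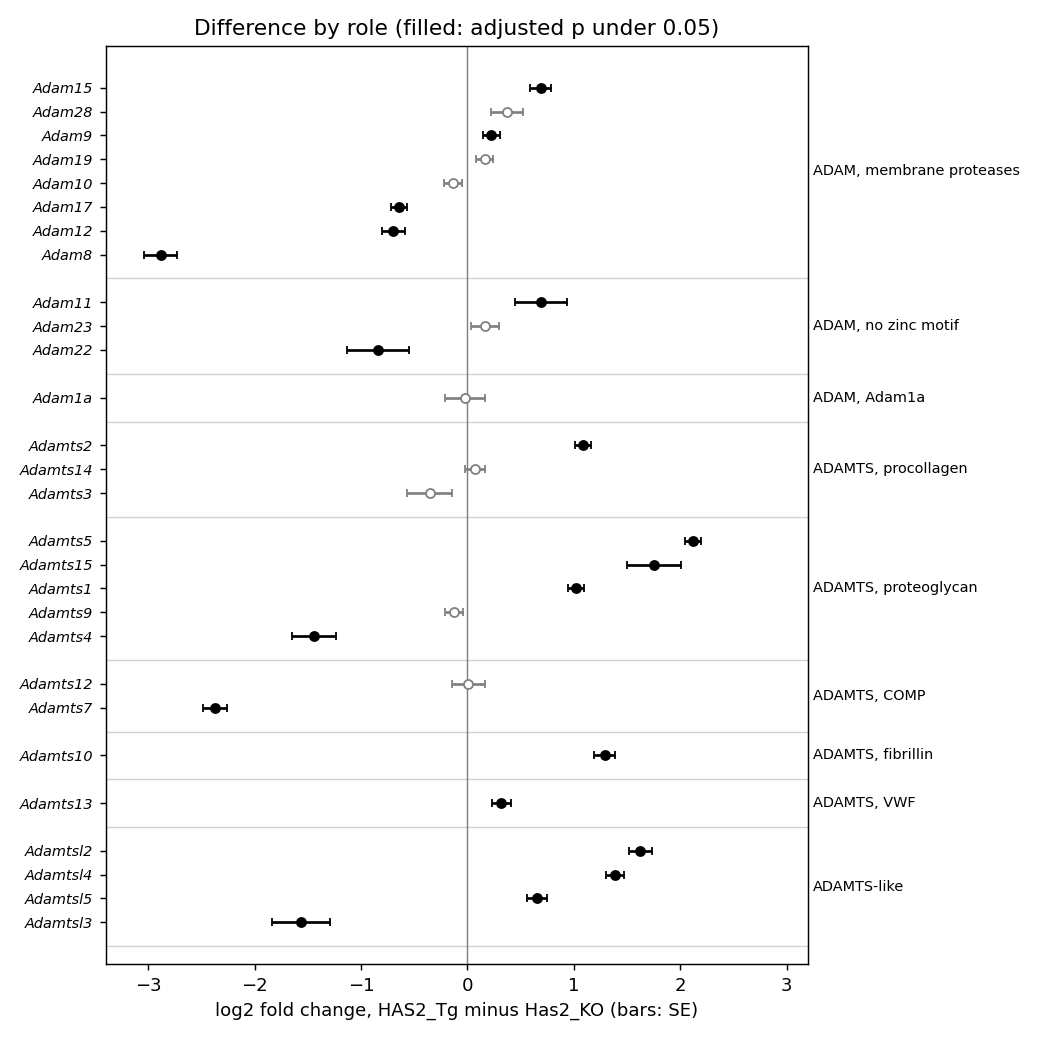
Log2 fold change (HAS2_Tg minus Has2_KO, edgeR) of the 28 tested members, with bars for the SE, grouped by role. Filled points had an adjusted p under 0.05. Members ran from -0.36 to 1.09 in the procollagen group and from -1.44 to 2.12 in the proteoglycan group. In the COMP group they ran from -2.38 to 0.01.

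Promoter windows of RefSeq (GRCm38.p6, 250 bases before to 50 after a start) were available for 23 of the 41 listed members, in 25 windows, and 3 are shown for members with large changes. They were searched on both strands for AP-1 (TGANTCA), TEAD (GGAATG) and RBPJ (TGGGAA) motifs and for the CArG box of serum response factor and the NF-kB motif. Matches are in capitals. A match is a description and not a binding site. The Adam8 window lies inside the gene span given above, so it belongs to an internal start.
Adamts1, higher in HAS2_Tg, chr16:85803064-85803363, minus strand: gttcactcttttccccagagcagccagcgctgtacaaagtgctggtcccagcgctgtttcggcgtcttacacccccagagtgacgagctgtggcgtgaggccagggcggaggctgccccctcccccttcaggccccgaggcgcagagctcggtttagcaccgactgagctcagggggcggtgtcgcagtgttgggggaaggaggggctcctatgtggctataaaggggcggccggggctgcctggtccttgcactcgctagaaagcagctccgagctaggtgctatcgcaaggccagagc
Adamtsl2, higher in HAS2_Tg, chr2:27079129-27079428, plus strand: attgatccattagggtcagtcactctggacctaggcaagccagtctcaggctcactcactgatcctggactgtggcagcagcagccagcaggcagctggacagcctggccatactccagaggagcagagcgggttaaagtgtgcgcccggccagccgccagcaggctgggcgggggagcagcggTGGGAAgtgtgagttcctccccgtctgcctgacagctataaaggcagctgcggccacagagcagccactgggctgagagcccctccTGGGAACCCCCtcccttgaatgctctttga
Adam8, lower in HAS2_Tg, chr7:139992513-139992812, minus strand: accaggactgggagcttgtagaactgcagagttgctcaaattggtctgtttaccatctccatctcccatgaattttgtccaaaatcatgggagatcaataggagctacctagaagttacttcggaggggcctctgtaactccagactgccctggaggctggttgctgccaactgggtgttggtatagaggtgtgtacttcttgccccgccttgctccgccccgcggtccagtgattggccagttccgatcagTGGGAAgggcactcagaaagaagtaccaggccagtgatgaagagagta
The Adamts1 window held none of the 5 motifs, the Adam8 window 1 RBPJ match, and the Adamtsl2 window 2 RBPJ matches, of which the second overlaps an NF-kB match. RBPJ letters were found in 9 of the 25 member windows, against 25.6% of all 32851 windows, and NF-kB letters in 3, against 4.51%. TEAD letters were found in 3 member windows, against 14.7%, AP-1 letters in 2, against 7.81%, and a CArG box in none, against 1.63%.

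Of 15 tested regulators of shedding, 4 were higher and 4 lower, beside 20.2% higher and 20.5% lower over all genes (median log2 fold change 0.03, where all genes had -0.01). With total counts 4 were higher and 7 lower. Timp3, the tissue inhibitor that blocks ADAM17, ADAMTS4 and ADAMTS5, averaged 2985 ± 389 CPM over the 3 HAS2_Tg libraries against 1408 ± 44.3 CPM over the 3 Has2_KO libraries (SD) and rose by 1.08 on the log2 scale (SE 0.10, adjusted p = 3.24e-07). Timp2 also rose (log2 fold change 1.02, SE 0.08), and Timp1, an inhibitor of ADAM10, fell (-1.10, SE 0.15). Reck, a membrane inhibitor, rose with a log2 fold change of 0.82. Rhbdf2, or iRhom2, which brings ADAM17 to the cell surface, was lower in HAS2_Tg. It had 446, 565 and 457 counts there and 959, 1018 and 979 in Has2_KO (-0.80, SE 0.09, edgeR adjusted p = 5.08e-06). Its relative Rhbdf1 had 0.07 (adjusted p = 0.535). The part of macrophages and endothelial cells in the fall of Rhbdf2 was not tested. Of the tetraspanins that partner ADAM10, Tspan15 (-1.67) and Tspan14 (-0.45) fell and Tspan17 (0.67) rose. Furin, which removes prodomains of both families, had -0.06 (adjusted p = 0.541).

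Of 28 tested ADAM substrates, 16 were lower in HAS2_Tg and 4 higher (median -0.45), beside 20.5% lower and 20.2% higher over all genes. Tnf, a substrate of ADAM17, had 1, 0 and 1 counts in HAS2_Tg and 33, 37 and 32 in Has2_KO, a scaled ratio of Has2_KO to HAS2_Tg sums of 44.0 (95% exact interval 11.9 to 369). The EGF receptor ligand Tgfa fell, with 124, 141 and 134 counts in HAS2_Tg and 357, 380 and 360 in Has2_KO. On the log2 scale the chemokine Cxcl16 fell by 1.78 (SE 0.08), the adhesion molecule Vcam1 by 1.79 (SE 0.08) and the hyaluronan receptor Cd44 by 1.11 (SE 0.08). The Notch ligand Dll1 (-2.63, SE 0.52) and the receptor Met (-1.51, SE 0.27) were low in both groups. Cdh5, the endothelial cadherin, had 15, 26 and 19 counts in HAS2_Tg and 5554, 5217 and 5100 in Has2_KO (-7.83). Notch3, a receptor of pericytes and smooth muscle, rose (1.73, SE 0.10). Cdh5 is also on the endothelial marker list, so it counts in both lists. Macrophage and endothelial markers moved with Tnf and the other falling substrates, and their part in these differences was not tested. With total counts 2 substrates were higher and 22 lower.

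Of 11 tested ADAMTS substrates, 7 were higher in HAS2_Tg and 2 lower (median 0.37), beside 20.2% higher and 20.5% lower over all genes. Col1a2, a chain of type I procollagen cut by Adamts2, had 7347, 6528 and 6628 counts in HAS2_Tg and 3342, 3318 and 3441 in Has2_KO (1.23, SE 0.08, adjusted p = 7.96e-09). Vcan, or versican, the substrate of Adamts1, Adamts4, Adamts5 and Adamts9, had 136, 238 and 271 counts in HAS2_Tg and 588, 698 and 645 in Has2_KO. It fell (-1.37, SE 0.19, adjusted p = 0.000367), with replicate 4 the lowest of the HAS2_Tg libraries. Vwf, the substrate of Adamts13 and an endothelial gene, fell (-2.51, SE 0.36), with 5, 7 and 3 counts in HAS2_Tg and 42, 26 and 33 in Has2_KO. Reln had -0.01 (adjusted p = 0.929). Vwf is also on the endothelial marker list, and Reln and Dcn are on the stellate list, so these genes count in both. With total counts 4 of the substrates were higher and 2 lower. Of 7 tested partners and modifiers, the microfibril gene Fbn1 (0.57, SE 0.08) and the glycosyltransferase Pofut2 (0.34, SE 0.09) rose, and Lrp1 (-0.30, SE 0.09), which clears ADAMTS proteins from the matrix, and Papln (-0.71, SE 0.12), or papilin, fell (median 0.05). With total counts 1 was higher and 3 lower.

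**Figure D4:**
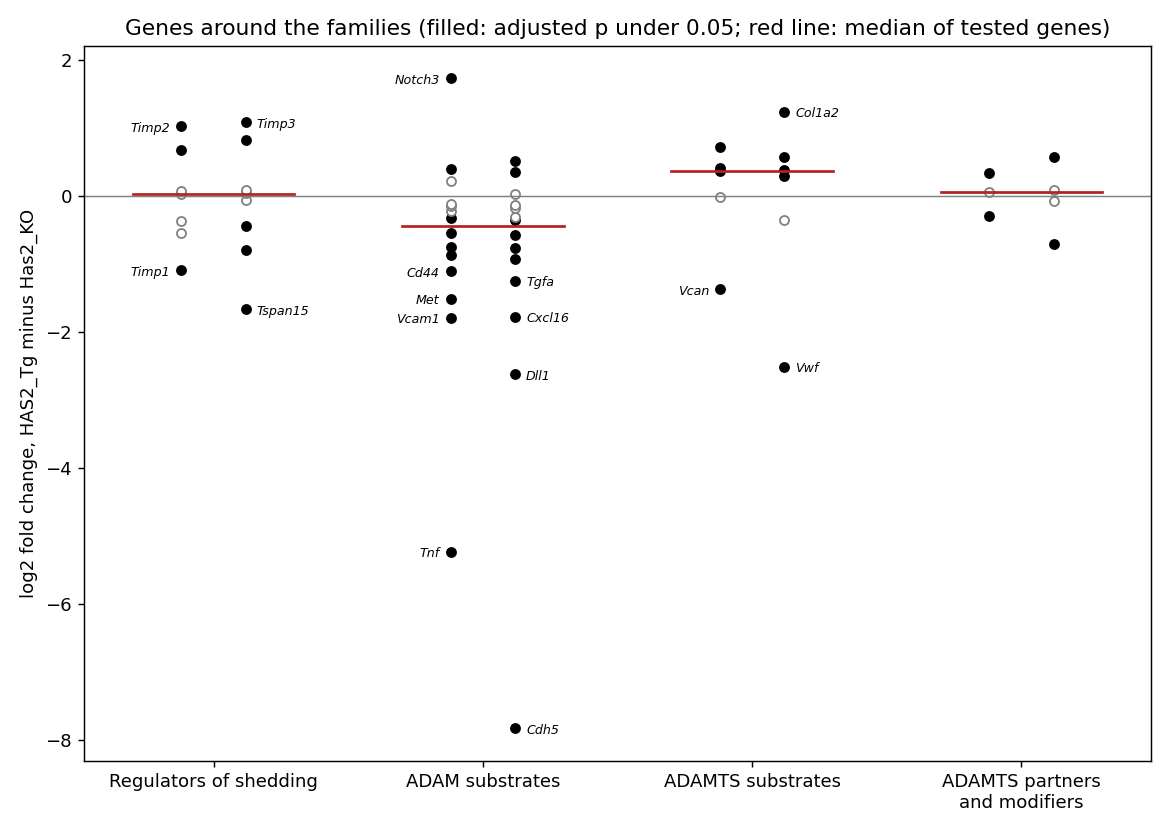
Log2 fold change (HAS2_Tg minus Has2_KO) of tested genes in the 4 lists around the families. Filled points had an adjusted p under 0.05, names mark called genes with a change of at least 2-fold, and red lines mark medians, which lie at 0.03, -0.45, 0.37 and 0.05 from left to right.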

How the data were processed

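Per the submitters' processing notes, the tools included RSEM, with no version given, and the build was mm10. The deposited expected counts, so named per the file headers, are estimated reads per gene, and some are not whole. The authors also deposited FPKM, a unit that divides by gene length and depth. A gene missing from a library was set to 0 (12658 cells). Of 17909 NCBI identifiers, 17857 were named by RefSeq's GRCm38.p6 table and 52 were not, and mm10 is another name of GRCm38. The most abundant unnamed identifier held 1.59% of the counts of HAS2_Tg replicate 4, 0.156% in replicate 5 and 0.0467% in replicate 6. In the Has2_KO libraries it held 0.0268 to 0.0422%.

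Expected counts were rounded, filtered with filterByExpr (minimum count 10), scaled by TMM and tested two-sided with edgeR (glmQLFit, robust, and glmQLFTest). Benjamini-Hochberg values over all genes were read at 0.05, and fold changes run HAS2_Tg over Has2_KO. Each SE was obtained as the absolute log2 fold change over the root of F. Intervals cover counting error only. The fit was first tested on simulated data.

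The members and lists were chosen with earlier results of these data known. Every tested member was named, with counts where called or at 5 CPM or more, and list genes were named where called and changed at least 2-fold. Further list genes in the text were picked with values in view. Lists held regulators of shedding, substrates, partners and markers of stellate, macrophage, endothelial, hepatocyte, mesothelial, portal fibroblast and smooth muscle, cholangiocyte and neutrophil cells. Alternatives were DESeq2 size factors, upper-quartile factors, total counts, no filter, a minimum of 1 CPM throughout either group, DESeq2, limma on log2(FPKM + 1) or log2(FPKM + 0.1) where FPKM was at least 1 in 3 libraries, limma with no filter, an adjusted p of 0.01, and each library left out. The software was Python 3.11.15, DESeq2 1.42.0, limma 3.58.1, edgeR 4.0.16 and R 4.3.3.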

Additional observations from a re-analysis of the deposited data

How the results depend on the processing

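Of the 19 called members, 15 kept their call and direction in every alternative that could test them: Adam8, Adam12, Adam15, Adam17, Adamts1, Adamts2, Adamts4, Adamts5, Adamts7, Adamts10, Adamts15 and the 4 ADAMTS-like genes. The exceptions were Adam9, Adam11, Adam22 and Adamts13. Over all genes the median log2 fold change was -0.01 with TMM and -0.18 with total counts, so members with small changes depend on the scaling. With limma on FPKM and a filter, 23 members were tested, of which 8 were higher and 7 lower, and over all alternatives 8 to 14 members were higher and 6 to 10 lower.

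The count of ADAM genes called higher (3) was 1 with total counts, in each limma fit and at an adjusted p of 0.01, and 1 to 4 with each library left out. The count of ADAMTS genes called lower (2) was 4 with total counts and in limma with no filter, and that of ADAMTS-like genes called lower (1) was 0 in both limma fits with a filter, which did not test Adamtsl3. With total counts 7 regulators were lower. ADAM substrates called higher were 2 with total counts and in each limma fit. ADAMTS substrates called higher were 4 with total counts and in both limma fits with a filter and 3 with no filter, and those called lower were 1 in both limma fits with a filter. Partners called higher were 1 with total counts and in each limma fit, and those called lower were 1 at an adjusted p of 0.01 and 1 to 2 with each library left out. The cause of these shifts was not tested.

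Directions reversed only for members that did not pass. Adam19 had -0.01 with total counts and -0.02 in each limma fit, Adam23 -0.01 with total counts, Adamts12 -0.16 with total counts, -0.20 in limma with log2(FPKM + 0.1) and -0.18 in the other limma fits, and Adamts14 -0.10 with total counts, -0.11 in limma with log2(FPKM + 0.1) and -0.09 in the other limma fits. With each library left out, Adamts12 ranged from -0.14 to 0.20 and Adam1a from -0.11 to 0.07.

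No paired analysis was possible because the groups share no replicate numbers. The 13 members that did not pass the filter had at most 10 counts in any library, where counting error is large, and low depth and low expression cannot be told apart there. A fit with no filter called 1 of them, Adamts8.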
